A study of Mus musculus with 6 samples.

Results

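β-catenin, the proteins that mark it for degradation and the coactivator Bcl9 were described by the RNA of 10 genes, namely Ctnnb1, the scaffolds Apc, Apc2 and Axin1, the kinases Gsk3a, Gsk3b and Csnk1a1, the F-box proteins Btrc and Fbxw11, and Bcl9. They were chosen by name, and all 10 were found in the table of 41126 genes and passed the filter on low counts that left 15462 genes to be tested. RNA-seq had been performed on 3 control and 3 GOF (gain of function) cultures of dermal fibroblasts from ventral skin of mice at postnatal day 4, on a mixed CD1, C57Bl6 background. GOF cultures were infected with Adenovirus-Cre and carried one Ctnnb1 allele from which exon 3 is cut out (AdCre; Ctnnb1{delta}ex3/+ in the labels), while control cultures received Adenovirus-GFP (AdGFP; +/+), so virus and β-catenin differ together between the groups and cannot be told apart. The labels' treatment text names Adenovirus-Cre at 366 to 500 MOI for 6 h for every culture, and the study's methods describe the same floxed allele in the controls. Those methods give 366 to 500 MOI for Adenovirus-Cre but 366 MOI for Adenovirus-GFP, so the viral dose may differ too. The 6 h is the time of infection, and the study profiled RNA days later. Infection was of whole cultures, so any cells that escaped recombination would be part of each GOF library. The 6 cultures came from 4 animals. One animal was the source of Control replicate 0 and GOF replicate 2, and another of Control replicate 2 and GOF replicate 0.

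Without a Wnt signal, newly made β-catenin is held by a complex built on Axin and Apc. Casein kinase 1α (Csnk1a1) phosphorylates it first, the glycogen synthase kinases Gsk3a and Gsk3b then phosphorylate further sites, and the F-box proteins Btrc and Fbxw11 read the phosphorylated stretch and bring the ubiquitin ligase that sends it to the proteasome. β-catenin that escapes enters the nucleus, where it binds Tcf/Lef factors and recruits Bcl9, which links it to Pygo proteins. In dermal fibroblasts this pathway is known for its part in dermal identity, hair follicle initiation and fibrosis.

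The stretch removed in GOF cells is shown because it holds the sites on which the kinases and F-box proteins act. Ctnnb1 exon 3 lies at chr9:120950522-120950749 (GRCm38, plus strand, the third of 15 exons of a coding transcript in GENCODE M21), is wholly coding and runs from codon 5 to codon 81. In the genome sequence below, capitals mark codons 33, 37, 41 and 45, which encode serine, serine, threonine and serine. Codon 45 is the known Csnk1a1 site and the other three are the Gsk3 sites.
Ctnnb1 exon 3: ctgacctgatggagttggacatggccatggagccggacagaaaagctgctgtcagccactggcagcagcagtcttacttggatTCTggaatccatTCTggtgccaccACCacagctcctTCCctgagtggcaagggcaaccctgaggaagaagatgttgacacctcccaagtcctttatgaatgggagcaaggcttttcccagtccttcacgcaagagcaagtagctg
The exon is 228 bases long, the length of 76 codons, so joining exon 2 to exon 4 keeps the reading frame. The joined reference exons are shown across the new junction, with 15 bases of exon 2 in lower case and 15 bases of exon 4 in capitals.
Exon 2 joined to exon 4: caatggctactcaagATATTGACGGGCAGT
Exon 3 makes up 6.29% of the 3623 bases of this transcript, and its loss from 1 of 2 alleles would take away 3.15% of them. The values below count fragments over whole genes, and values per exon were not analysed here.

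Ctnnb1 RNA was abundant and did not differ detectably between the groups. Its level was 262, 285 and 254 FPKM (fragments scaled by transcript length and library size) in Control replicates 0, 1 and 2, and 246, 297 and 248 FPKM in GOF replicates 0, 1 and 2. The highest and the lowest libraries were both GOF libraries, so the groups overlapped. The log2 fold change, GOF against control, was -0.05 with a standard error of 0.15 and a 95% interval of -0.40 to 0.30 (edgeR's quasi-likelihood test, Benjamini-Hochberg adjusted p = 0.844). This interval is wider than the change that the loss of exon 3 from 1 allele would make in a whole-gene count. Ulk4, a gene on the other strand, covers 14.6% of the annotated exon bases of Ctnnb1, and the sources used here do not say whether the counting used strand. Ulk4 held 1257 to 1654 fragments per library against 33700 to 42214 for Ctnnb1.

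Across the 10 genes, edgeR placed 1 past an adjusted p of 0.05, Fbxw11, where 21.2% of all tested genes passed. None passed that threshold together with the study's fold change over 2, against 12.3% of all tested genes, and the count was also 0 with DESeq2 and with limma, while 1 had an unadjusted p under 0.05. The share of all tested genes at an unadjusted p under 0.05 was not computed, here or for the lists below. The median log2 fold change of the 10 genes was 0.09, beside -0.02 over all tested genes, and the median size without regard to sign was 0.17, beside 0.34. Their median standard error was 0.14, beside 0.20. For all 10 the 95% interval of the change lay inside a fold change of 2 in either direction, which held for 57.4% of the tested genes, and for 6 it lay inside a fold change of 1.5. In bulk RNA a change in the number of cells of a type and a change in RNA per cell cannot be told apart.

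**Figure D1:**
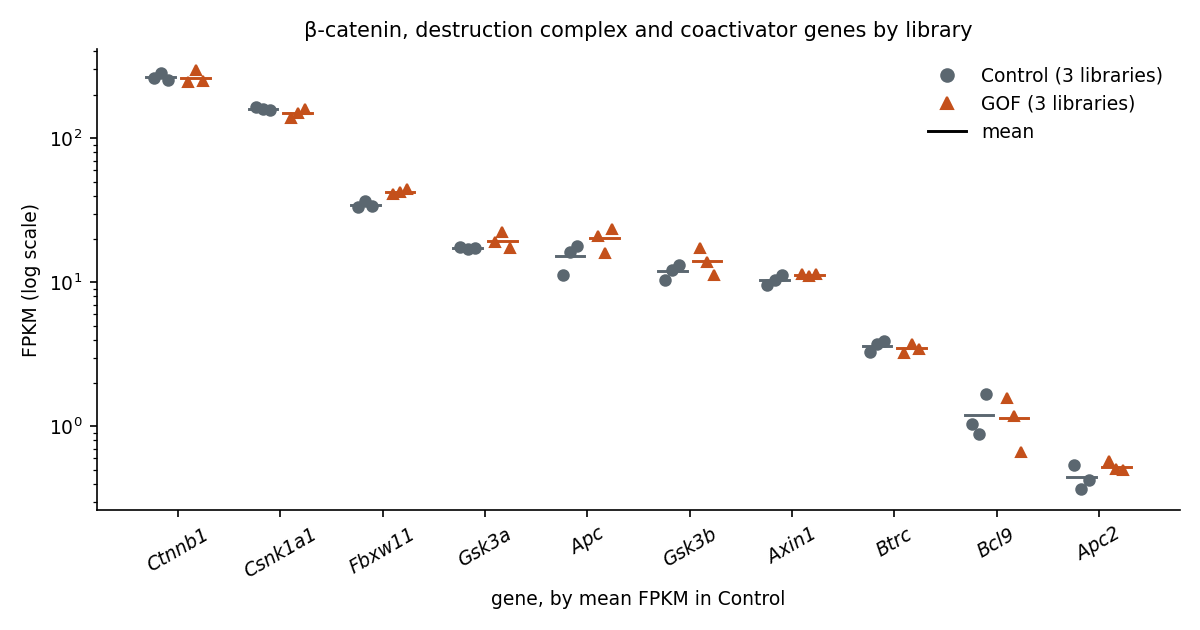
Level of each of the 10 genes in FPKM (log axis) in 3 Control (grey circles) and 3 GOF (orange triangles) libraries, with short lines at the group means and genes ordered by their mean in Control. Ctnnb1 and Csnk1a1 stand above the rest in both groups, and Fbxw11 is the gene whose groups do not overlap.

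**Figure D2:**
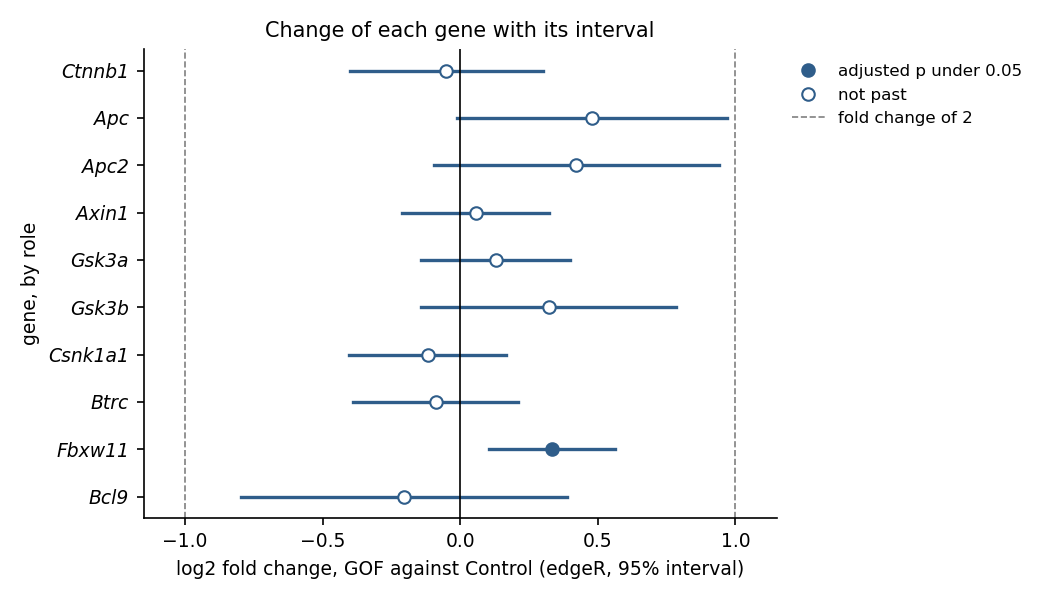
Fitted log2 fold change of each gene, GOF against Control, from edgeR on 3 against 3 libraries, with bars for the 95% interval, filled circles for an adjusted p under 0.05 and dashed lines at a fold change of 2. All 10 intervals lie between the dashed lines, and Fbxw11 at 0.33 is the filled circle.

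Of the scaffolds, Apc had the largest fitted change of the 10 genes, but its libraries overlapped. Apc, which lies on chromosome 18 from 34220924 to 34322552, was at 11.2, 16.3 and 18.0 FPKM in Control replicates 0, 1 and 2 and at 21.1, 15.9 and 23.6 FPKM in GOF replicates 0, 1 and 2. GOF replicate 1 fell below 2 of the control libraries, and Control replicate 0 was the lowest of all 6. The log2 fold change was 0.48 (standard error 0.21, 95% interval -0.01 to 0.97, adjusted p = 0.152 from edgeR). It was 0.26 without Control replicate 0 and 0.69 with the animal as a replicate block (adjusted p = 0.152 and 0.0547 from edgeR).

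Apc2, a relative of Apc that is best known from the nervous system, was near the limit of detection. It was at 0.539, 0.367 and 0.423 FPKM in Control replicates 0, 1 and 2 and at 0.570, 0.502 and 0.495 FPKM in GOF replicates 0, 1 and 2, from 89 to 186 fragments per library. Its log2 fold change was 0.42 with an interval of -0.10 to 0.94 (adjusted p = 0.223 from edgeR). Control replicate 0 had the fewest fragments and the highest control FPKM, so its place among the controls depends on the unit.

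Axin1, the scaffold usually held to be the limiting part of the complex, was one of the steadiest genes of the set. It was at 9.51, 10.3 and 11.3 FPKM in Control replicates 0, 1 and 2 and at 11.4, 11.0 and 11.4 FPKM in GOF replicates 0, 1 and 2. GOF replicate 1 lay below the highest control, and the log2 fold change was 0.06 with an interval of -0.21 to 0.32 (adjusted p = 0.766 from edgeR). Its paralog Axin2 is described below through its ratio to Axin1.

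None of the 3 kinases passed the test. Csnk1a1, the priming kinase, was the second most abundant of the 10, with 165, 159 and 156 FPKM in Control replicates 0, 1 and 2 and 138, 151 and 159 FPKM in GOF replicates 0, 1 and 2. Its 2 lowest libraries were GOF libraries, while GOF replicate 2 lay within the control range. Its log2 fold change was -0.12, with an interval of -0.40 to 0.17 (adjusted p = 0.534 from edgeR).

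Gsk3a and Gsk3b encode closely related kinases that can stand in for each other in this complex. Gsk3a was at 17.5, 17.04 and 17.2 FPKM in Control replicates 0, 1 and 2, the tightest control group of the set, and at 18.9, 22.3 and 17.2 FPKM in GOF replicates 0, 1 and 2. GOF replicate 1 was the highest library and GOF replicate 2 sat among the controls. A log2 fold change of 0.13 was fitted, with an interval of -0.14 to 0.40 (adjusted p = 0.471 from edgeR). The annotated antisense gene 9130221H12Rik covers 28.3% of the exon bases of Gsk3a and held 205 to 353 fragments per library against 1389 to 1800, so some fragments of Gsk3a are uncertain.

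Gsk3b was at 10.3, 12.2 and 13.2 FPKM in Control replicates 0, 1 and 2 and at 17.2, 13.8 and 11.3 FPKM in GOF replicates 0, 1 and 2. GOF replicate 0 was the highest library and GOF replicate 2 was below 2 controls. Its log2 fold change was 0.32, with an interval of -0.14 to 0.78 (adjusted p = 0.294 from edgeR). It was 0.13 without GOF replicate 0.

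Fbxw11, or β-TrCP2, was the gene of the set that edgeR called higher in GOF samples. Located on chromosome 11 from 32642724 to 32746816, it was at 33.5, 36.9 and 33.6 FPKM in Control replicates 0, 1 and 2 and at 40.7, 42.2 and 44.2 FPKM in GOF replicates 0, 1 and 2. Every GOF library lay above every control library, as for 20.3% of all tested genes (39.5% in either direction), and the exact permutation test gave a two-sided p of 0.1, the smallest that 3 against 3 libraries allow. The log2 fold change was 0.33 (standard error 0.10, 95% interval 0.11 to 0.56), a 1.26-fold difference (adjusted p = 0.0478 from edgeR). This call sits at the threshold. It was lost in 13 of the 15 alternatives (adjusted p = 0.0541 to 0.242 from edgeR or limma). Among them were leaving out any 1 of the 6 libraries (adjusted p = 0.0541 to 0.163 from edgeR) and the animal as a replicate block (adjusted p = 0.105 from edgeR). The call was kept with DESeq2 (adjusted p = 0.00695) and with a minimum FPKM of 1 in 3 libraries (adjusted p = 0.0384 from edgeR). The fitted change stayed between 0.28 and 0.36 in all 15 alternatives.

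Btrc, or β-TrCP1, was the scarcer of the F-box transcripts and was not called. It was at 3.28, 3.71 and 3.91 FPKM in Control replicates 0, 1 and 2 and at 3.24, 3.74 and 3.43 FPKM in GOF replicates 0, 1 and 2. The ranges overlapped almost wholly, and the fitted log2 change was -0.09 with an interval of -0.39 to 0.21 (adjusted p = 0.663 from edgeR).

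Bcl9, the coactivator, was low and variable. It was at 1.03, 0.882 and 1.68 FPKM in Control replicates 0, 1 and 2 and at 1.58, 1.17 and 0.662 FPKM in GOF replicates 0, 1 and 2, from 130 to 248 fragments per library. The lowest library was a GOF library and the highest a control library, with the others mixed between them. Its log2 fold change was -0.20 with an interval of -0.80 to 0.39 (adjusted p = 0.609 from edgeR), and it was 0.00 without GOF replicate 2.

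Ratios of paralogs within a library do not depend on scaling between libraries, so they were compared for 4 pairs, with an exact two-sided permutation test whose smallest p is 0.1. The ratio of the F-box genes did not overlap between the groups. Btrc stood at 0.0981, 0.101 and 0.117 of the FPKM of Fbxw11 in Control replicates 0, 1 and 2 and at 0.0797, 0.0888 and 0.0776 in GOF replicates 0, 1 and 2, so all GOF libraries lay below all controls. On the log2 scale the ratio was -3.25 ± 0.13 in control and -3.61 ± 0.10 in GOF samples (SD, n = 3 each), a difference of -0.36 (exact permutation p = 0.1). It was -0.28 without Control replicate 2, the library whose omission moved it most. The fitted log2 fold changes were -0.09 for Btrc and 0.33 for Fbxw11, so this ratio largely shows the difference of Fbxw11 again. The share of other gene pairs with ratios that separate was not computed. Among single tested genes, 39.5% did not overlap between the groups.

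The Gsk3a to Gsk3b ratio overlapped between the groups. It was 1.69, 1.401 and 1.31 in Control replicates 0, 1 and 2 and 1.10, 1.61 and 1.52 in GOF replicates 0, 1 and 2, so Gsk3a was the more abundant in every library. The log2 difference between the groups was -0.06 (exact permutation p = 0.8). The ratio of Bcl9l, the paralog of Bcl9, to Bcl9 ranged from 0.825 to 2.51 in control and from 0.935 to 2.38 in GOF libraries, with a log2 difference of 0.00 (exact permutation p = 1). Neither paralog of that pair was the more abundant throughout.

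Axin2, which is itself induced by β-catenin and acts in the same complex as Axin1, changed the make-up of the Axin transcripts. Its FPKM was 0.0151, 0.0132 and 0.0157 of that of Axin1 in Control replicates 0, 1 and 2, and 1.69, 1.31 and 1.65 times that of Axin1 in GOF replicates 0, 1 and 2. Axin2 rose from 0.144, 0.136 and 0.177 FPKM in Control replicates 0, 1 and 2 to 19.2, 14.4 and 18.7 FPKM in GOF replicates 0, 1 and 2 (log2 fold change 6.98, adjusted p = 4.95e-05 from edgeR). The control values rest on 12, 21 and 25 fragments in Control replicates 0, 1 and 2. They are near the limit of detection, so the control ratio and the size of the change are imprecise. The fitted log2 change of Axin2 ran from 3.99 to 7.17 over the 15 alternatives. Axin2 made up 1.45 ± 0.126% of the summed Axin FPKM in control and 60.6 ± 3.34% in GOF samples (SD, n = 3 each), and it exceeded Axin1 in each GOF library. The log2 ratio differed by 6.72 between the groups (exact permutation p = 0.1). Added together, the Axin genes reached 10.5 ± 0.920 FPKM in controls, against 28.7 ± 2.89 in GOF cultures (SD, n = 3 each). The FPKM of Ctnnb1 was 25.5 ± 2.93 times the Axin sum in control and 9.31 ± 2.05 times in GOF samples (SD, n = 3 each, exact permutation p = 0.1). Axin1 and Ctnnb1 had log2 fold changes of only 0.06 and -0.05. The share, the sum and both ratios therefore restate the rise of Axin2 and are not separate results. The study itself used Axin2 to check that the pathway was active in GOF cells.

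**Figure D3:**
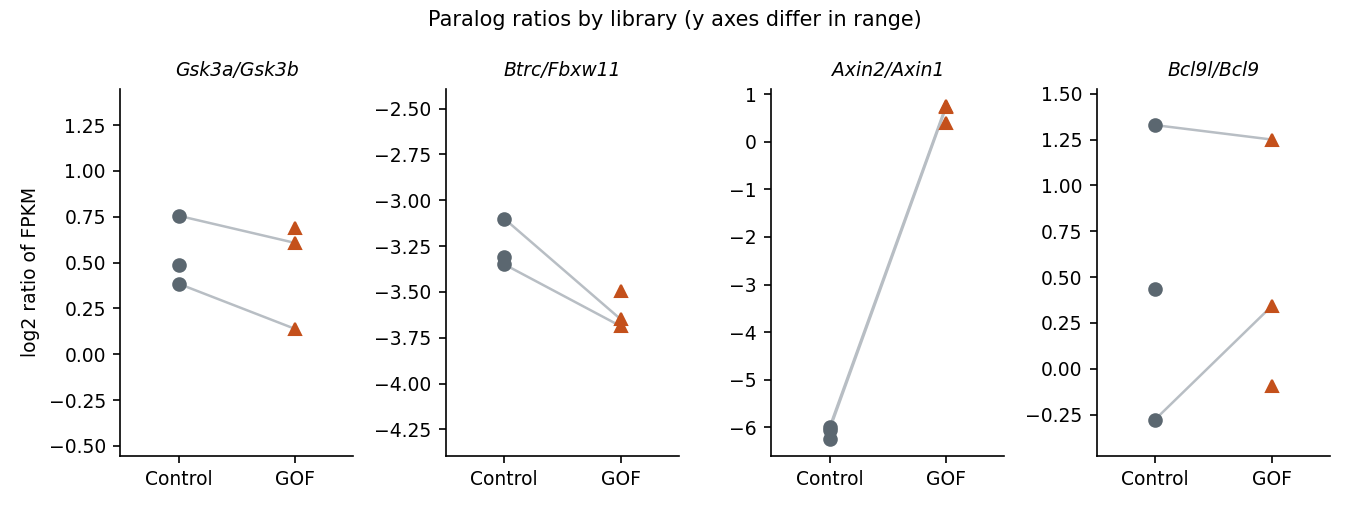
Log2 ratio of FPKM within each library for 4 pairs of paralogs, in 3 Control (grey circles) and 3 GOF (orange triangles) libraries; grey lines join cultures of the same animal and the y axes differ in range. Btrc/Fbxw11 is lower and Axin2/Axin1 higher in all GOF libraries, and the other 2 ratios overlap.

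Per length, the 10 genes spanned a wide range of levels in the same order in both groups, apart from Apc and Gsk3a, which changed places. Ctnnb1 was first and higher than Csnk1a1 in every library, with control means of 267 and 160 FPKM and GOF means of 263 and 149. Fbxw11 followed at 34.6 and 42.3 FPKM, and its range stayed apart from those of Csnk1a1 above it and the gene below it in both groups. Gsk3a, Apc, Gsk3b and Axin1 formed a run with means between 10.4 and 17.2 FPKM in control and between 11.3 and 20.2 in GOF libraries, in which each neighbour overlapped the next. Btrc, Bcl9 and Apc2 were the lowest, with control means of 3.64, 1.197 and 0.443 FPKM and GOF means of 3.47, 1.14 and 0.522, and their ranges did not overlap one another. By mean FPKM over the 6 libraries, Ctnnb1 lay at percentile 98.1 of the tested genes, Csnk1a1 at 96.6, Fbxw11 at 86.1 and Apc2 at 14.3.

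Set against each partner within a library, a comparison added after the data were seen, Ctnnb1 held 25.9 ± 2.95 times the FPKM of Axin1 in control and 23.4 ± 3.08 times in GOF samples (SD, n = 3 each). Its ratio to Fbxw11 was 7.71 ± 0.129 in control and 6.23 ± 0.731 in GOF samples, and its ratio to Gsk3a was 15.5 ± 1.09 and 13.6 ± 0.745 (SD, n = 3 each). In these 2 of 9 ratios the GOF libraries lay below all controls (exact permutation p = 0.1 each), as did the ratio of Ctnnb1 to 16.6% of all other tested genes, and in the other 7 the groups overlapped.

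The 2 animals that gave a culture to both groups allowed the change to be read within an animal, as the difference of log2 fragments scaled to library size (CPM). Fbxw11 was higher in the GOF culture of both, by 0.36 in the animal of Control replicate 0 and by 0.33 in that of Control replicate 2. Apc was also higher in both, by 1.09 and 0.28, and Ctnnb1 was lower in both, with differences of -0.13 and -0.10. Of the 10 genes, 6 were higher in both GOF cultures (Gsk3a by only 0.0016 in one), 3 were lower in both and Btrc differed in sign. By FPKM, 4 were higher in both, 3 were lower in both and 3 differed in sign, namely Btrc, Gsk3a and Apc2. With only 2 animals, no test of these differences was made other than the edgeR fit that follows. With the animal as a replicate block in edgeR, each of the other 2 cultures is a block of its own. The fitted change then rests on the same 2 animals. None of the 10 passed an adjusted p of 0.05 in that fit, and Apc came nearest.

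FPKM and fragment counts did not always order the libraries alike. Cuffdiff sums the FPKM of a gene over isoforms, each scaled by its own length. The ratio of fragments to FPKM, relative to the gene's mean and the library's median, was followed across libraries for 11692 genes with at least 50 fragments in each. It spanned 0.03 on the log2 scale for Btrc and 0.10 for Ctnnb1, less than the median gene at 0.17. It spanned 0.37 for Apc, 0.49 for Bcl9 and 0.94 for Apc2, which lay at percentiles 90.0, 95.7 and 99.5 of these genes. For Apc2 the change within the animal of Control replicate 0 was 0.76 by CPM and -0.12 by FPKM. Isoform values were not analysed here.

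The rest of the machinery was followed through 7 lists with 53 further genes, of which 50 were tested. Of these, 2 were higher and 2 lower in GOF samples at an adjusted p under 0.05, where 11.1% and 10.2% of all tested genes were, and their median log2 fold change was 0.09. DESeq2 called 11 of them, and edgeR called 8 without Control replicate 0 and 7 without GOF replicate 2, settings in which 27.2%, 23.4% and 18.7% of all tested genes were called. Amer2, Amer3 and Frat1 were too low to be tested.

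Among the 8 other casein kinases, 1 was higher. Csnk1g1, a membrane-bound casein kinase 1 known to phosphorylate the Wnt coreceptor Lrp6, was at 8.22, 9.41 and 10.3 FPKM in Control replicates 0, 1 and 2 and at 21.6, 14.6 and 16.5 FPKM in GOF replicates 0, 1 and 2. All GOF libraries were above all controls, with a log2 fold change of 0.92 (SE 0.17; adjusted p = 0.00899 from edgeR), which passed in all 15 alternatives. The remaining casein kinases had log2 fold changes of -0.40 to 0.45. Of these, Csnk2b was called by DESeq2 (adjusted p = 0.0310) and by edgeR without GOF replicate 2 (adjusted p = 0.0470). Among the 11 tested scaffolds and PP2A genes, Axin2 was the one past the threshold in edgeR, and the median log2 fold change was 0.24. An unadjusted p under 0.05 was reached by 5 of them, beside 13 of the 50 tested genes of all lists. DESeq2 also called Ppp2r1a and Ppp2r5e (adjusted p = 0.0126 and 0.0358), and edgeR with the animal as a replicate block also called Ppp2r5d (adjusted p = 0.0427). In edgeR, Amer1 was called without Control replicate 0 (adjusted p = 0.0263) and Ppp2r5e without GOF replicate 2 (adjusted p = 0.0337).

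Dvl2, which carries the Wnt signal to the complex and disables it, fell among the 5 tested inhibitors. It was at 6.75, 9.54 and 10.2 FPKM in Control replicates 0, 1 and 2 and at 5.84, 6.38 and 5.03 FPKM in GOF replicates 0, 1 and 2, without overlap. It had a log2 fold change of -0.62 (SE 0.17; adjusted p = 0.0339 from edgeR). The call was lost in 9 of the 15 alternatives. These were the replicate blocks by animal and by label number (adjusted p = 0.0843 and 0.115 from edgeR) and both limma fits (adjusted p = 0.0646 and 0.0736). The rest left out any 1 library other than Control replicate 0 (adjusted p = 0.0775 to 0.128 from edgeR).

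Among the 10 other coactivators, Pygo1, one of the Pygo proteins that Bcl9 links to β-catenin, fell. It was at 1.4996, 2.17 and 2.31 FPKM in Control replicates 0, 1 and 2 and at 0.790, 0.757 and 0.769 FPKM in GOF replicates 0, 1 and 2. The GOF libraries were nearly equal and all below the controls, with a log2 fold change of -1.36 (SE 0.19; adjusted p = 0.00279 from edgeR), past the threshold in all 15 alternatives. Its paralog Pygo2 averaged 17.3 ± 0.651 FPKM in controls, against 22.6 ± 2.09 in GOF cultures (SD, n = 3 each), with a log2 fold change of 0.34. Its groups did not overlap, and it was not called by edgeR (adjusted p = 0.0914) but was called by DESeq2 (adjusted p = 0.0490). Cdc73 was called by DESeq2 (adjusted p = 0.0214) and by edgeR without Control replicate 0 or GOF replicate 2 (adjusted p = 0.0379 and 0.0465). Med12 was called by edgeR without Control replicate 0 (adjusted p = 0.0267).

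No gene passed in edgeR among the 8 genes of the SCF core and other ubiquitin ligases, the 4 of Axin turnover and the 4 nuclear inhibitors of β-catenin, with 1, 1 and 0 of them at an unadjusted p under 0.05. DESeq2 called Tbl1xr1 of the first list, Usp34 of the second and 0 of the third. Tbl1xr1 was called in 4 of the 15 alternatives. Besides DESeq2, these were edgeR with upper-quartile scaling, with the animal as a replicate block (adjusted p = 0.0299) and without Control replicate 0 (adjusted p = 0.0201). Ctnnbip1 of the third list was called by edgeR without GOF replicate 2 (adjusted p = 0.0422). Cul1, Rbx1 and Skp1a, with which Btrc and Fbxw11 form the ligase, had log2 fold changes of 0.01, 0.09 and 0.12.

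**Figure D4:**
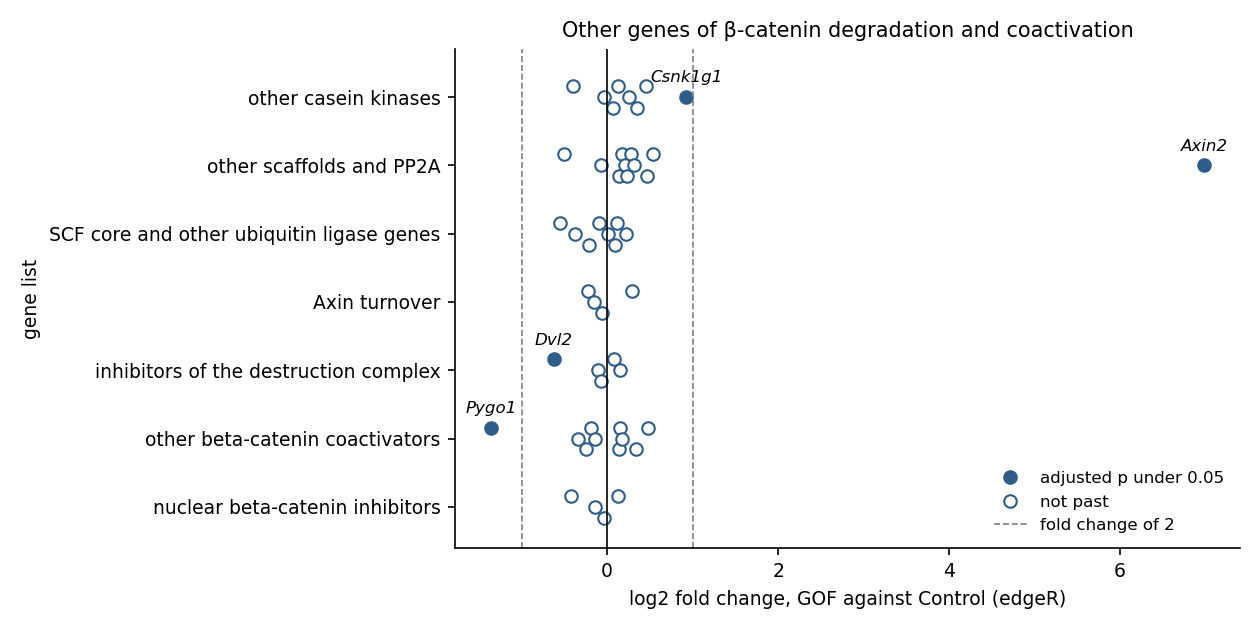
Fitted log2 fold change, GOF against Control, of the 50 tested genes in 7 lists around the destruction complex and β-catenin's coactivators (edgeR, 3 against 3 libraries); filled circles passed an adjusted p of 0.05 and dashed lines mark a fold change of 2. Axin2 stands apart at 6.98, Csnk1g1 is higher, Dvl2 and Pygo1 are lower, and most genes lie near 0.

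The pattern of Ctnnb1 over the 6 libraries was matched most closely by Orai3, Spcs2 and G6pc3. Their centred log2(FPKM + 1) differed from that of Ctnnb1 by a root mean square of 0.05, 0.06 and 0.06, where the median over 6211 genes with a mean of at least 10 FPKM was 0.25. Since Ctnnb1 varied little, this likeness rests on small differences between libraries.

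The libraries held 35980831 to 42834467 fragments. Of 8 fibroblast markers all were detected in every library, with a summed level of 2994 to 3799 FPKM in control libraries and 2458 to 2989 in GOF libraries. Within that sum, Dcn (982 to 1175 against 251 to 450 FPKM) and Col1a2 were lower in all GOF libraries. Vim was higher in all of them (719 to 866 against 1204 to 1506 FPKM), and the other fibroblast markers overlapped. All 7 keratinocyte markers were under 1 FPKM throughout, as were 4 of 5 adipocyte, 4 of 5 melanocyte, 4 of 6 skeletal muscle, 2 of 5 endothelial, 2 of 5 macrophage and 2 of 4 Schwann cell markers. The skeletal muscle sum was 23.3 to 27.6 FPKM in control libraries and 138 to 172.5 in GOF libraries, through Acta1, while Myod1, Myog, Myh3 and Ckm stayed under 1 FPKM. The adipocyte sum was 7.18 to 8.95 FPKM against 1.80 to 3.17 FPKM, through Fabp4, and the melanocyte sum was 3.13 to 7.67 FPKM against 0.936 to 2.35 FPKM. The sums of pericyte or smooth muscle, endothelial, macrophage and Schwann cell markers overlapped between the groups, although single markers did not. Of the endothelial markers, Tek was lower in all GOF libraries (1.86 to 2.11 against 0.180 to 0.769 FPKM). Kdr (0.355 to 0.984 against 1.72 to 2.70 FPKM) and Cdh5 were higher in all of them. Of the macrophage markers, Csf1r was higher in all GOF libraries (1.05 to 1.46 against 3.38 to 4.79 FPKM). The part of these shifts in the values of Fbxw11 or Ctnnb1 was not tested.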

How the data were processed

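The authors aligned stranded, paired-end reads with TopHat (mm10) and quantified genes with Cuffdiff (versions not given in the sources used here). The estimated counts are the fragments per gene and library that the authors' Cuffdiff run deposited before scaling, of which 4.95% were not whole, and all were rounded. The FPKM values were deposited after the authors' scaling by transcript length and between libraries. A further 2 columns of scaled fragments and the lncRNA table were not used. Of 41126 genes, 32 to which Cuffdiff gave a status other than OK in a library were left out, none of them among the 10. Of these, 23 had the status HIDATA (too many fragments at the locus).

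Symbols came from GENCODE M21 (GRCm38, the assembly of mm10), which matched 97.9% of identifiers, and exon 3 was read from the RefSeq GRCm38.p6 genome. Counts were fitted over all tested genes in R 4.3.3 with edgeR 4.0.16 (TMM, filterByExpr, quasi-likelihood test, Benjamini-Hochberg adjustment), and intervals are the log2 fold change with its standard error times the 95% t quantile. Calls used an adjusted p under 0.05, alone or with a fold change over 2. DESeq2 1.42.0, limma 3.58.1 on log2(FPKM + 1) and log2(FPKM + 0.1), other scalings and filters, replicate blocks and leaving out each library were alternatives. The tests were checked on simulated data. Libraries of the same animal, named in the titles, deviated together (r = 0.408 and 0.460 across genes).

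The members and lists were chosen with earlier results of these data known, and ratios to Ctnnb1, differences within animals and the ratio of fragments to FPKM were added after the data were seen. Named were all 10 members, Axin2 and Bcl9l for the ratios, up to 3 called genes of each list, and the 3 genes nearest to Ctnnb1. Genes named beyond this rule were chosen after their values were seen.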

Additional observations from a re-analysis of the deposited data

How the results depend on the processing

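For 14 fold changes and ratios with up to 15 alternatives each, 159 of 181 recomputed values kept their direction and their side of the threshold, 13 lost the call and 9 changed sign. The count of 10 genes past an adjusted p of 0.05 was 1 as reported, and 1 with DESeq2 and with a minimum FPKM of 1 in 3 libraries. It was 0 with no filter on low counts, library totals, upper-quartile scaling, limma on log2(FPKM + 1), limma on log2(FPKM + 0.1), the replicate block by label number and the replicate block by animal, and from 0 to 0 with each library left out. In each of these Fbxw11 was the gene lost, with an adjusted p of 0.0541 to 0.242. The cause was not tested. The count past both thresholds was 0 throughout. The count of wider pathway genes was 4, against 11 with DESeq2, 5 with the replicate block by animal and 3 with that by label number, where the share of all tested genes was 21.2%, 27.2%, 21.4% and 11.0%. With upper-quartile scaling this count was 5, where the share was 21.5%. It ran from 3 to 8 with each library left out.

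With each library left out, the sign of small differences changed: the log2 fold change ran from -0.16 to 0.023 for Ctnnb1, from -0.013 to 0.090 for Axin1 and from -0.41 to 0.0021 for Bcl9, the log2 ratio difference from -0.17 to 0.11 for Gsk3a to Gsk3b and from -0.38 to 0.42 for Bcl9l to Bcl9. The last was -0.0061 with FPKM + 0.1. Without a change of sign, the log2 fold change ran from -0.16 to -0.04 for Btrc, from -0.17 to -0.07 for Csnk1a1, from 0.07 to 0.17 for Gsk3a, from 0.13 to 0.48 for Gsk3b and from 0.26 to 0.64 for Apc. Same-numbered libraries deviated with r of -0.410, 0.054 and -0.441 across genes, so the label numbers do not mark pairs, whereas the animals do. Among the genes named, the animal block ended the calls of Fbxw11 and Dvl2 and added Tbl1xr1 and Ppp2r5d. The change fitted with that block rests on the 2 animals that gave a culture to both groups. Apc2 was not tested with the minimum FPKM of 1. Apc2 and Bcl9, with at most 248 fragments per library, had the largest standard errors of the 10 genes, 0.22 and 0.25. Apc and Gsk3b, with far more fragments, had standard errors of 0.21 and 0.20. The part of counting in these errors was not tested.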
